A study of Homo sapiens with 6 samples.

Results

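The genes described here are 10 markers of neuroendocrine granules and of neurons: CHGA, CHGB, CPE, SYP, SYT1, TUBB3, KIF5C, UCHL1, BEX1 and DLL3. They were taken by symbol from the authors' expression table, which listed 12659 genes, and all 10 were found there. The table holds 6 libraries of polyadenylated RNA, 3 from NCI-H1650 and 3 from NCI-H1650Re. NCI-H1650 is an established human lung adenocarcinoma line driven by mutant EGFR, and its libraries carry the time point pre-LUAD. NCI-H1650Re libraries carry the time point post-SCLC, although their cell line field repeats the parental name. How NCI-H1650Re was derived, whether it is a single clone and whether either line was under drug when harvested are not given in the labels. The comparison asks what differed between the lines, labelled as an adenocarcinoma state and as a state linked to small cell lung cancer (SCLC). Whether NCI-H1650Re is SCLC was not tested here.

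SCLC is in most cases a neuroendocrine tumour. Its cells store peptides in dense-core granules, whose matrix is built from granins such as chromogranin A, and they release the granules on calcium entry with the machinery that neurons use at synapses. Pathologists look for chromogranin A and synaptophysin to call a lung tumour neuroendocrine, and DLL3, an inhibitory Notch ligand, is a surface target in SCLC therapy. REST, a repressor bound at many of these genes, keeps them low in epithelial cells.

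Levels are given in FPKM, fragments scaled by transcript length and library depth, as the authors deposited them. Estimated depth ran from 17.0 to 22.3 M fragments per library. A change is the mean log2(FPKM + 1) of NCI-H1650Re less that of the parental line, a scale that understates the change of low genes, and a gene passed where limma's Benjamini-Hochberg adjusted p, taken over 11764 tested genes, was at most 0.05. All 10 markers reached a mean of 1 FPKM in at least 1 line and were tested; CHGA and KIF5C did so only through NCI-H1650Re. No label says that the replicates were separate cultures, and the p-values reflect no more than the spread among these 6 samples, which may be technical. The replicate 3 libraries stood apart: correlations of log2 values with the other libraries of the line were 0.988 and 0.990 for NCI-H1650 replicate 3, against 0.997 between replicates 1 and 2, and 0.980 and 0.988 for NCI-H1650Re replicate 3, against 0.994. Results are therefore also given without both, which leaves 2 libraries per line.

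The epithelial markers EPCAM, CDH1, KRT7, KRT8, KRT18, KRT19, ELF3 and CLDN4 were all listed, with a summed level of 3520 to 4660 FPKM in NCI-H1650 and 3070 to 3100 in NCI-H1650Re, and the keratins KRT7, KRT8 and KRT18 were abundant in both lines. Of the 8, 5 fell and none rose, against 13.9% of all tested genes falling and 16.6% rising. Without both replicate 3 libraries CLDN4 fell too and KRT7 and KRT18 rose. That made 6 falls and 2 rises, against 19.4% and 23.7% of all tested genes. KRT19 was at 37.9 to 116 FPKM in NCI-H1650Re against 644 to 831 in NCI-H1650. Of 6 markers of lung adenocarcinoma only SFTPD was analysed, at 0.46 to 1.04 FPKM. Of 7 immune markers only CD14 was listed, and it fell from between 1.09 and 1.86 to between 0.13 and 0.29 FPKM. Of 9 fibroblast and endothelial markers COL1A1, COL3A1 and PDGFRA were listed, and COL3A1 rose from between 9.02 and 12.0 to between 20.9 and 39.1 FPKM. The part of these genes in the results below was not tested. None of the 7 glial and 2 erythrocyte markers was analysed.

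Of the 10 markers, 4 rose, none fell and 6 did not pass. The risers were CHGA, KIF5C, BEX1 and TUBB3, with folds of mean FPKM of 6.01, 5.35, 2.49 and 1.39. The fold of CHGA ran from 4.29 to 14.7 when each library was left out in turn. It was 4.29 without NCI-H1650 replicate 1, and 14.7 without NCI-H1650 replicate 3, on a parental mean of 0.23 FPKM. Over all tested genes 16.6% rose and 30.5% changed in either direction. Libraries of the lines did not overlap for 5 markers, the 4 above and DLL3, all higher in NCI-H1650Re; over all tested genes 26.3% were apart in that direction and 47.2% in either. Median change was 0.27 over the 10 markers and 0.03 over all tested genes. CHGA and KIF5C reached the filter of 1 FPKM only in NCI-H1650Re, where they are high. The markers were also chosen with earlier results of these data known, so the counts and the median are descriptions. In bulk RNA a larger share of cells with a transcript and more of it per cell cannot be told apart. By level the picture was uneven: 8 of the 10 had a mean of at least 1 FPKM in NCI-H1650 and all 10 did in NCI-H1650Re, but only TUBB3, CPE and SYT1 exceeded 10 FPKM in the parental line, joined by BEX1 in NCI-H1650Re. The median listed gene was at 7.83 and 7.95 FPKM.

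**Figure D1:**
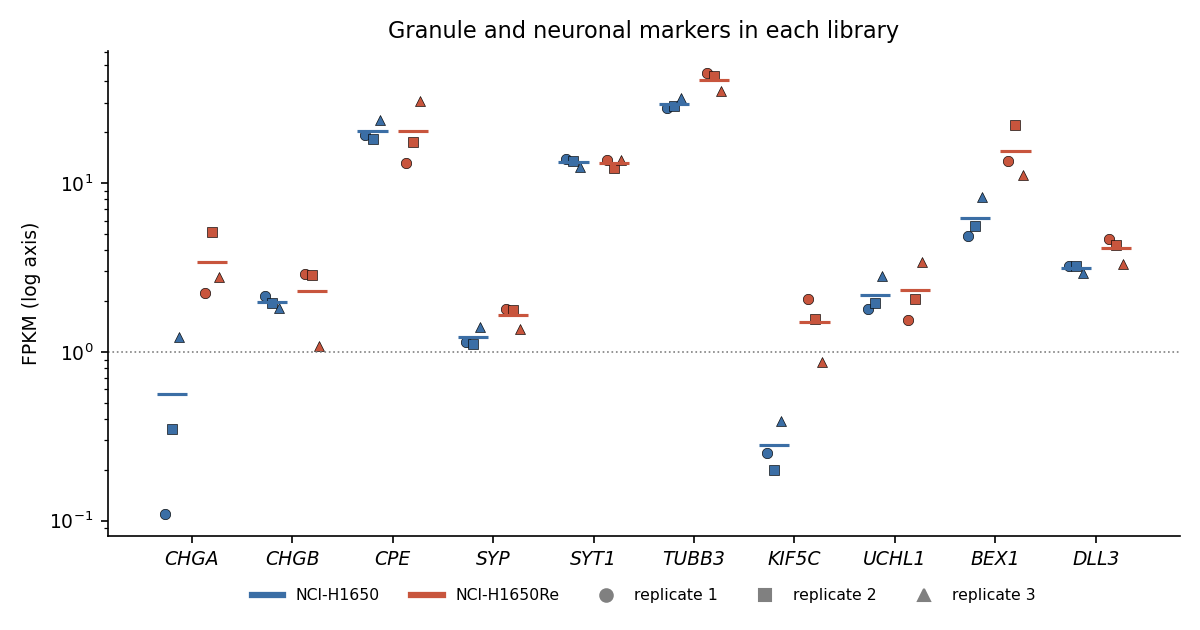
FPKM of each marker (log axis) in the 6 libraries; colour gives the line, symbol shape the replicate, and the bar the mean of 3 libraries, with a dotted line at 1 FPKM. CHGA, KIF5C, BEX1, TUBB3 and DLL3 have no overlap between lines, and for KIF5C, TUBB3, BEX1 and DLL3 the lowest NCI-H1650Re library is replicate 3.

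Promoter sequence is shown for the 4 genes that rose, as the 250 bases before the RefSeq start site (GRCh38.p14). CHGA lies on chromosome 14 and its stretch is chr14:92922900-92923149, plus strand. That of KIF5C is chr2:148874977-148875226, plus strand. That of BEX1 is chrX:103064172-103064421, minus strand, and that of TUBB3 chr16:89923092-89923341, plus strand. Capitals mark the cAMP response element (TGACGTCA) and its core (TGACG), searched on both strands; a full element also counts as the core on each strand.
CHGA: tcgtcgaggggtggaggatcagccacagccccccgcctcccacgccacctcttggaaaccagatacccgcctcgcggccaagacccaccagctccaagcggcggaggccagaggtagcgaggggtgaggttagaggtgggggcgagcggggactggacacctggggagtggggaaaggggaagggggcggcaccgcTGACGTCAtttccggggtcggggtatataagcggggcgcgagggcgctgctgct
KIF5C: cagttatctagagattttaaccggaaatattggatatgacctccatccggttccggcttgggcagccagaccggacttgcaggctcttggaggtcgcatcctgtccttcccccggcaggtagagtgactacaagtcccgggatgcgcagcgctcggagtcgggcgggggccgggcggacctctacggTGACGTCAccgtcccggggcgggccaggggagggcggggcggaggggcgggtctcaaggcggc
BEX1: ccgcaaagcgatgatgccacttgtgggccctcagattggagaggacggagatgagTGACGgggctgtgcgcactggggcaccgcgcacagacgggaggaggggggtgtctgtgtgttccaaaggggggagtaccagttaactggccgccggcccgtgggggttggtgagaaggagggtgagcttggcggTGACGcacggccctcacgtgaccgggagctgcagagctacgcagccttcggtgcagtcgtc
TUBB3: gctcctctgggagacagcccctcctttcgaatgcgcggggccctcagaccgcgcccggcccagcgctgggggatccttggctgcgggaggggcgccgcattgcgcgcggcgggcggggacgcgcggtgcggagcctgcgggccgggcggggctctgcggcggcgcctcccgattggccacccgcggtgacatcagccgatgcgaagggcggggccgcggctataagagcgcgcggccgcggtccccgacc
The full element stood 54 bases before the start in CHGA and 63 bases before it in KIF5C. It was held by 2 of the 8 markers with a promoter entry and by 1.65% of 35116 promoter stretches of this length. BEX1 had the core at 195 and 61 bases before its start, CPE also had the core, and TUBB3 had none; in all, 4 of 8 markers held the core, against 21.2% of promoters. The E-box CAGCTG was found in none of the 8, against 14.0% of promoters. The left arm of the REST site (CAGCACC) was found in none, against 6.16%, and its right arm (GGACAG) in KIF5C and SYT1, against 17.2%. The full element was added to the search after the data were seen. These are matches of letters, not measured binding.

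Among granule proteins, CHGA encodes chromogranin A, the acidic granin that condenses granule contents. The parental libraries, in the order of replicates 1 to 3 used throughout, had 0.11, 0.35 and 1.23 FPKM of it, and the NCI-H1650Re libraries 2.22, 5.15 and 2.79. The deposited counts behind these values were 5, 14 and 43 fragments, and 93, 229 and 104. Every NCI-H1650Re library was above every NCI-H1650 library, but the parental libraries themselves were far apart, with replicate 3 the highest. CHGA rose by 1.50 on the log2 scale (SE 0.31, 95% interval 0.78 to 2.21, limma adjusted p = 0.0101). On counts rebuilt from FPKM, which need no pseudocount, edgeR's quasi-likelihood test gave a log2 change of 2.62 (Benjamini-Hochberg adjusted p = 0.0259). That test called the same 4 markers, all higher, against 14.7% of the genes it tested. With each library left out in turn, CHGA kept its call (limma adjusted p from 0.00686 to 0.0442). In level it moved from above 4.49% of listed genes in NCI-H1650 to above 28.6% in NCI-H1650Re, so at a mean of 3.39 FPKM it stayed below the median gene. The gene spans 92923080 to 92935293 on chromosome 14 (GENCODE 29, GRCh38).

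CHGB encodes chromogranin B, a second granin with a like role. Its levels were 2.14, 1.96 and 1.82 FPKM in NCI-H1650 replicates 1 to 3 and 2.91, 2.85 and 1.08 in those of NCI-H1650Re. NCI-H1650Re replicates 1 and 2 were above all parental libraries and replicate 3 was below them all, on about 50 fragments against about 151 and 157. The log2 change was 0.09 (95% interval -0.45 to 0.62, limma adjusted p = 0.804). Without NCI-H1650Re replicate 3 it was 0.39 and passed (limma adjusted p = 0.0156). Without NCI-H1650Re replicate 1 or 2 it was -0.07 or -0.06 (limma adjusted p = 0.852 and 0.89), so its sign depended on the library left out. CHGB did not pass on rebuilt counts with edgeR (adjusted p = 0.72) or DESeq2 (0.762).

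CPE encodes carboxypeptidase E, which trims basic residues from peptides cut out of prohormones. It was at 19.2, 18.2 and 23.8 FPKM in NCI-H1650 and at 13.2, 17.5 and 30.7 in NCI-H1650Re, in replicate order. Both extremes were NCI-H1650Re libraries, and the means, 20.4 and 20.5 FPKM, were nearly equal. The log2 change was -0.07 with a wide interval of -0.69 to 0.55 (limma adjusted p = 0.865), so a change within that interval was not excluded. Without NCI-H1650Re replicate 3 it was -0.39 (limma adjusted p = 0.0688). It was -0.28 without both replicate 3 libraries (limma adjusted p = 0.104), and passed in neither setting. CPE was above 76.0% of listed genes in NCI-H1650, already in the parental line. Of its relatives, CPM did not pass (log2 change -0.12), nor did CPD (-0.26, limma adjusted p = 0.0709), although CPD passed with edgeR on rebuilt counts (adjusted p = 0.0452). CPA4, a secreted carboxypeptidase, fell from 85.5 ± 1.74 to 36.9 ± 3.49 FPKM (SD, n = 3; log2 change -1.20).

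The remaining granule genes were few. Of the 18 genes on the list of granule cargo and processing, 6 were listed and tested. CHGA rose, PAM fell and 4 did not pass, with a median change of 0.01. CHGA reached the filter of 1 FPKM only in NCI-H1650Re, where it is high, so the filter helped to set the count. Among all tested genes 16.6% rose and 13.9% fell. PAM, the enzyme that amidates peptide C-termini, was at 137, 141 and 95.8 FPKM in NCI-H1650 and 37.2, 50.2 and 52.3 in NCI-H1650Re (log2 change -1.39, SE 0.18, limma adjusted p = 0.00167), with no overlap. The granins PCSK1N and VGF did not pass; without both replicate 3 libraries VGF passed (log2 change 0.61, limma adjusted p = 0.00211). PCSK1N, also called proSAAS, was at 68.2 ± 9.35 and 65.9 ± 13.5 FPKM, and VGF at 4.49 ± 1.47 and 5.68 ± 0.895 (SD, n = 3). SCG2, SCG3, SCG5 and the convertases PCSK1 and PCSK2 were not analysed here. Leaving out both replicate 3 libraries gave 3 rises and 1 fall among the 6 genes of the list, against 23.7% and 19.4% of all tested genes.

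For vesicle proteins, SYP encodes synaptophysin, an abundant membrane protein of synaptic-like vesicles. It was at 1.15, 1.12 and 1.41 FPKM in NCI-H1650 and 1.79, 1.78 and 1.37 in NCI-H1650Re, on about 54 to 96 fragments per library. NCI-H1650Re replicate 3 fell within the parental range. The log2 change was 0.25 (95% interval -0.01 to 0.50, limma adjusted p = 0.124), and without both replicate 3 libraries it was 0.38 and passed (limma adjusted p = 0.0198). SYP also passed without NCI-H1650Re replicate 3 alone (0.0446). With any other single library left out it did not pass (limma adjusted p from 0.0982 to 0.321). Nor did it on rebuilt counts with edgeR (adjusted p = 0.157) or DESeq2 (0.291). Over all 3 libraries of each line SYP was above 11.5% of listed genes in NCI-H1650 and 15.9% in NCI-H1650Re. SYPL1, a broadly expressed relative, was at 33.0 ± 2.50 and 36.6 ± 4.92 FPKM (SD, n = 3) and did not pass.

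SYT1 encodes synaptotagmin 1, the calcium sensor of fast vesicle fusion. It was the steadiest marker, at 13.8, 13.5 and 12.5 FPKM in NCI-H1650 and 13.6, 12.3 and 13.6 in NCI-H1650Re. The lines overlapped, and the log2 change was -0.01 with a narrow interval of -0.18 to 0.17 (limma adjusted p = 0.954). With about 1018 to 1482 fragments per library, counting error was small. SYT1 was above 65.3% of listed genes in NCI-H1650. Among other synaptotagmins, SYT12 fell from 20.8 ± 4.88 to 13.3 ± 1.22 FPKM and SYT17 from 36.3 ± 2.31 to 24.9 ± 1.30, while SYT7 did not pass (log2 change 0.11), though it did without both replicate 3 libraries (0.26, limma adjusted p = 0.0423). SYT12 lost its call when replicate 2 of NCI-H1650 (limma adjusted p = 0.0664) or of NCI-H1650Re (0.0928) was left out.

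The vesicle and exocytosis list went both ways. Of its 23 genes 16 were listed and 13 tested: 2 rose, 3 fell and 8 did not pass, with a median change of 0.06. Among all tested genes 16.6% rose and 13.9% fell. RAB27B, 1 of these 3 falls, reached the filter of 1 FPKM only in NCI-H1650, where it is high, so the filter helped to set the count. With both replicate 3 libraries left out there were 5 rises and 2 falls among the 13, against 23.7% and 19.4% of all tested genes. UNC13A, which primes vesicles for fusion, rose from 6.66 ± 0.252 to 13.1 ± 1.87 FPKM (a log2 change of 0.87 with SE 0.10 and limma adjusted p = 0.00135), and SYNGR3, a synaptogyrin, from 4.45 ± 1.05 to 7.86 ± 0.270. The small GTPase RAB27B, which docks secretory granules, fell from 2.43 ± 0.0954 to 0.980 ± 0.191, and RAB3A and SYNGR1 also fell (log2 change -0.37 for each). SYNGR1 lost its call in 5 of the alternatives, among them leaving out both replicate 3 libraries (limma adjusted p = 0.0675). RAB3A lost its call in 8 of the alternatives, among them edgeR on rebuilt counts (adjusted p = 0.0507). VAMP2, a core fusion protein, was at 12.0 ± 1.40 and 12.6 ± 2.74 FPKM and did not pass. SNAP25 and SV2A were not analysed here.

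TUBB3, the beta-tubulin isotype typical of neurons, was the most abundant marker in both lines. It was at 28.0, 28.6 and 31.8 FPKM in NCI-H1650 and 45.0, 43.1 and 35.0 in NCI-H1650Re. The lines did not overlap, though NCI-H1650Re replicate 3 lay close to NCI-H1650 replicate 3. TUBB3 rose by 0.46 on the log2 scale (SE 0.10, 95% interval 0.22 to 0.70, limma adjusted p = 0.0147), and moved from above 83.3% to above 88.1% of listed genes. The call was lost when NCI-H1650 replicate 1 or 2 was left out (limma adjusted p = 0.0552 and 0.0631), and also without NCI-H1650Re replicate 2 (0.0656). Beta-tubulin genes are related in coding sequence, so some reads may be split between them. How much this affects the value of TUBB3 was not tested.

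TUBB3 was 1 of several beta-tubulins that were higher. TUBB2A rose from 10.1 ± 0.633 to 20.2 ± 2.22 FPKM, TUBB2B from 0.0767 ± 0.0208 to 1.17 ± 0.425 and TUBB4B from 308 ± 4.71 to 424 ± 61.5 (SD, n = 3). TUBB4B lost its call without NCI-H1650 replicate 1 or 2 or NCI-H1650Re replicate 2. TUBB, the main isotype of dividing cells, was at 716 ± 71.8 and 656 ± 80.8 FPKM and TUBB6 at 120.4 ± 8.44 and 132 ± 28.1, and neither passed. Without both replicate 3 libraries TUBB fell (log2 change -0.31, limma adjusted p = 0.00819), and without NCI-H1650Re replicate 3 TUBB6 rose (0.29, limma adjusted p = 0.0380). Per length, TUBB3 was far below TUBB in either line.

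The surroundings of TUBB3 were also higher. It lies near the end of the long arm of chromosome 16, at 89921392 to 89938761 (GENCODE 29, GRCh38). Of 18 other tested genes within 1 Mb, 14 rose, none fell and their median change was 0.50, beside 0.46 for TUBB3. Among all tested genes 16.6% rose and 13.9% fell. Among the 14 neighbours that rose were ANKRD11 (0.98), the ribosomal protein gene RPL13 (0.50), DEF8 (0.32) and GAS8 (0.49), none of them a neuronal marker. Around the other 3 risers no such run was seen: 1 of 13 neighbours rose around CHGA (median -0.07), 1 of 6 around KIF5C (0.06) and 1 of 11 around BEX1 (0.08). Around DLL3 11 of 38 rose and 2 fell (median 0.17), and around SYP 7 of 25 rose and none fell (0.10). What its neighbourhood adds to the rise of TUBB3 was not tested.

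**Figure D2:**
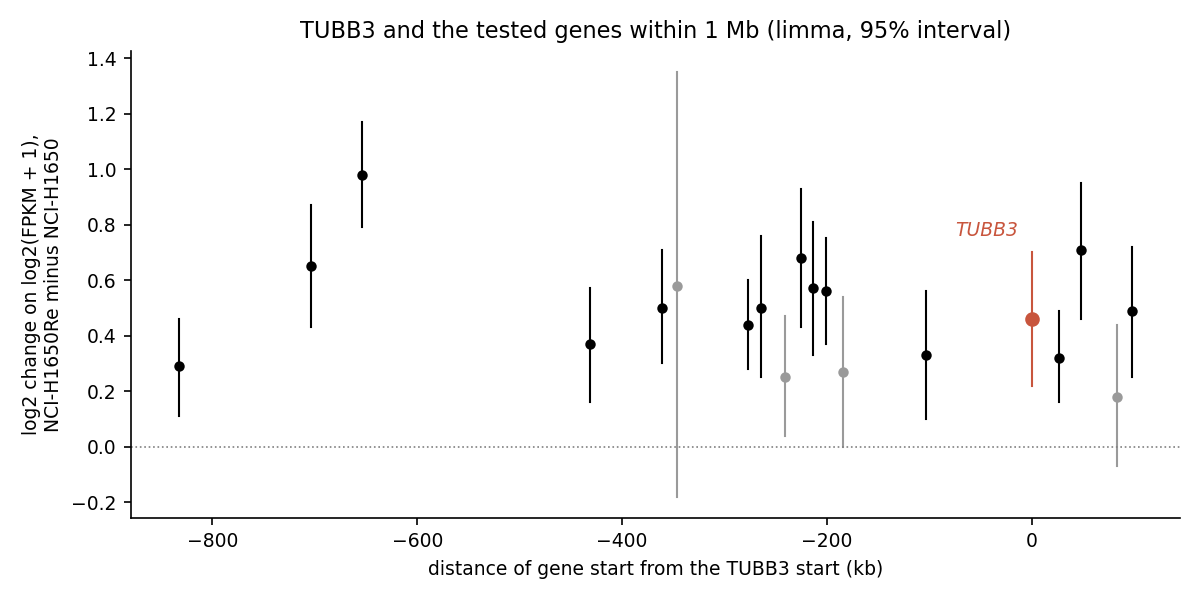
Log2 change (NCI-H1650Re minus NCI-H1650, with 95% limma interval) of TUBB3 and the 18 tested genes within 1 Mb, by distance of their start from that of TUBB3 in kb; black genes passed, grey ones did not, TUBB3 is in red. TUBB3 at 0.46 lies among neighbours with a median of 0.50.

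KIF5C encodes a neuronal heavy chain of kinesin-1, the motor that carries vesicles along axons. It was at 0.25, 0.20 and 0.39 FPKM in NCI-H1650 and 2.06, 1.56 and 0.87 in NCI-H1650Re, on 38, 27 and 46 and on 290, 233 and 109 deposited counts. All NCI-H1650Re libraries were above all parental ones, with replicate 3 the lowest of them. KIF5C rose by 0.94 on the log2 scale (SE 0.18, 95% interval 0.51 to 1.36, limma adjusted p = 0.00821). On rebuilt counts edgeR's quasi-likelihood test gave 2.38 (adjusted p = 0.00366). Its call held with each library left out (limma adjusted p from 0.00095 to 0.0391). It nonetheless stayed among the least abundant markers, above 1.45% of listed genes in NCI-H1650 and 14.6% in NCI-H1650Re. The gene spans 148875250 to 149026759 on chromosome 2.

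The other kinesin-1 heavy chains also rose. KIF5B, the form found in most cell types, rose from 60.9 ± 3.84 to 94.8 ± 7.76 FPKM (log2 change 0.63, limma adjusted p = 0.00187), and KIF5A, also neuronal, from 0.840 ± 0.0200 to 1.60 ± 0.376. KIF5A lost its call without any 1 library except NCI-H1650Re replicate 3 (limma adjusted p from 0.0546 to 0.0929). KIF5B remained far above both neuronal forms in each line.

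TUBB3, TUBB2B, KIF5C and KIF5A belong to the list of neuronal cytoskeleton and axon genes. Of its 23 genes 16 were listed and 14 tested: 7 rose, 1 fell and 6 did not pass, with a median change of 0.41 beside 0.03 over all tested genes, of which 16.6% rose and 13.9% fell. Of these 7 rises 4, KIF5C, KIF5A, KIF1A and TUBB2B, reached the filter of 1 FPKM only in NCI-H1650Re, where they are high, and DPYSL5 only in NCI-H1650, so the count and the median are descriptions that the filter helped to set. KIF1A, an axonal kinesin, was at 0.520 ± 0.208 and 1.01 ± 0.156 FPKM (limma adjusted p = 0.0494) and lost its call in 8 alternatives. TUBB2B rested on 3, 4 and 2 deposited counts in NCI-H1650 and on 41, 72 and 31 in NCI-H1650Re, and was not tested without NCI-H1650Re replicate 2. Without both replicate 3 libraries 9 of the list rose and 2 fell, against 23.7% and 19.4% of all tested genes. MAP1B, a microtubule-associated protein of growing axons, rose from 11.4 ± 1.62 to 21.6 ± 5.91 FPKM, and STMN1, a microtubule-destabilising protein that dividing cells also make, from 149.7 ± 23.7 to 227 ± 24.3. MAP1B lost its call when replicate 2 of either line was left out (limma adjusted p = 0.0657 for NCI-H1650 and 0.0654 for NCI-H1650Re). DPYSL5, a growth cone protein, fell from 2.24 ± 0.842 to 0.823 ± 0.372, a call lost without NCI-H1650 replicate 1 or 2 or NCI-H1650Re replicate 2 or 3. The neurofilament-like INA (40.8 ± 7.79 and 52.4 ± 3.84 FPKM) and TUBA1A (46.5 ± 7.67 and 47.6 ± 5.63) did not pass. INA passed without both replicate 3 libraries (limma adjusted p = 0.00369). MAPT, STMN2, GAP43 and DCX were not analysed here.

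UCHL1, a ubiquitin hydrolase abundant in neurons (PGP9.5), did not pass. It was at 1.80, 1.94 and 2.81 FPKM in NCI-H1650 and 1.55, 2.06 and 3.40 in NCI-H1650Re, on about 50 to 97 fragments. The lines overlapped, and in both of them replicate 3 was the highest library, as it was for CPE. The log2 change was 0.04 (95% interval -0.44 to 0.53, limma adjusted p = 0.889). UCHL1 was above 20.2% and 21.6% of listed genes in the lines, below its broadly expressed relatives UCHL3 (8.07 ± 0.765 and 10.1 ± 0.737 FPKM, a rise lost in 8 alternatives) and UCHL5 (means 6.85 and 8.19 FPKM).

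BEX1, a small brain-expressed adaptor encoded on the X chromosome (103062651 to 103064240), was at 4.88, 5.56 and 8.31 FPKM in NCI-H1650 and 13.5, 22.0 and 11.2 in NCI-H1650Re. The deposited counts were 94, 93 and 122, and 237, 409 and 175. The lines did not overlap; the closest libraries were again the replicate 3 ones. BEX1 rose by 1.17 on the log2 scale (SE 0.25, 95% interval 0.58 to 1.75, limma adjusted p = 0.0120), and moved from above 43.9% to above 68.6% of listed genes. Leaving out NCI-H1650 replicate 2 took BEX1 narrowly out of the calls (limma adjusted p = 0.0508). BEX2, its closest relative, which may share reads with it, was at 1.96, 1.82 and 4.32 FPKM and 2.56, 6.41 and 2.67, with NCI-H1650Re replicate 2 the highest as for BEX1; it did not pass (log2 change 0.37, limma adjusted p = 0.423). BEX3 (109 ± 3.08 and 105 ± 4.52 FPKM) and BEX4 did not pass either.

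Other soluble and surface markers of neurons went both ways. Of 22 genes on that list 10 were listed and tested: 2 rose, 3 fell and 5 did not pass (median change 0.15). Among all tested genes 16.6% rose and 13.9% fell. Leaving out both replicate 3 libraries gave 3 rises and 3 falls, against 23.7% and 19.4% of all tested genes. ENO2, neuron-specific enolase and also a glycolytic enzyme, was at 5.31, 5.74 and 6.37 FPKM in NCI-H1650 and 3.40, 2.71 and 1.94 in NCI-H1650Re, with no overlap (log2 change -0.90, limma adjusted p = 0.00425). GNAO1, the main G protein alpha subunit of neurons, fell from 15.8 ± 0.572 to 10.3 ± 0.976 FPKM, and CD24, a surface glycoprotein, from 90.4 ± 4.60 to 38.3 ± 5.11. B4GALNT1, a synthase of complex gangliosides, rose from 15.7 ± 0.930 to 23.0 ± 2.71. NCAM1, the surface marker known as CD56, was not analysed here.

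DLL3, the Notch ligand that acts inside the cell to inhibit Notch, was at 3.21, 3.23 and 2.95 FPKM in NCI-H1650 and 4.66, 4.31 and 3.32 in NCI-H1650Re. No library of one line overlapped the other, but NCI-H1650Re replicate 3 exceeded NCI-H1650 replicate 2 only narrowly. The log2 change was 0.29 (95% interval 0.03 to 0.56, limma adjusted p = 0.0833). Without both replicate 3 libraries it was 0.38 and passed (limma adjusted p = 0.0108), as it did without NCI-H1650Re replicate 3 alone (0.00877). With any other single library left out DLL3 did not pass (limma adjusted p from 0.156 to 0.232). Nor did it on rebuilt counts with edgeR (adjusted p = 0.119) or DESeq2 (0.175). DLL3 was above 27.1% and 32.7% of listed genes. Of the activating ligands, DLL1 and DLL4 averaged under 1 FPKM in each line and JAG1 did not pass (log2 change -0.30), though it fell without both replicate 3 libraries (-0.44, limma adjusted p = 0.0170); JAG2 fell from 17.2 ± 0.733 to 13.0 ± 0.386 FPKM.

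**Figure D3:**
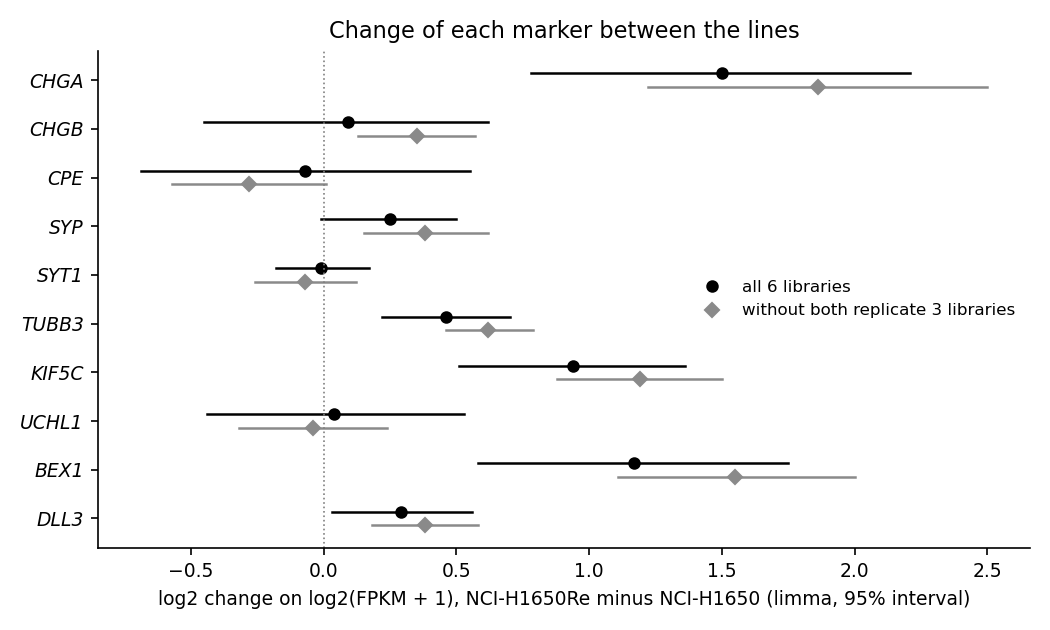
Log2 change of each marker (mean log2(FPKM + 1) of NCI-H1650Re less that of NCI-H1650) with its 95% limma interval, from all 6 libraries (black circles) and without both replicate 3 libraries (grey diamonds). With all libraries CHGA, KIF5C, BEX1 and TUBB3 passed; without replicate 3, CHGB, SYP and DLL3 passed as well, while CPE, SYT1 and UCHL1 did not.

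The replicate 3 libraries bore on most of the markers. Set against the mean of replicates 1 and 2 on the log2 scale, NCI-H1650Re replicate 3 was lower by 0.90 for CHGB, 0.58 for KIF5C and BEX1, 0.34 for DLL3 and 0.32 for TUBB3, and higher by 0.97 for CPE and 0.66 for UCHL1. In NCI-H1650, replicate 3 was higher by 0.87 for CHGA, 0.58 for BEX1 and 0.41 for UCHL1. Without both libraries 7 of the 10 markers rose and none fell, with 23.7% of all tested genes rising and 19.4% falling. The median change was 0.38, against 0.04 over all genes. That fit has 2 libraries per line and leaves out the one that stood apart in each, which lowers the spread. Over all tested genes it called 43.2%, against 30.5% with all 6 libraries, so its calls are not firmer than those with all libraries. Without NCI-H1650Re replicate 3 alone the count was also 7, against 21.0%, and without NCI-H1650 replicate 2 it was 2, against 7.64%. In the authors' deposited table, CHGA, BEX1 and KIF5C were marked as up, with log2 fold changes of 2.58, 1.29 and 2.40, among 2.53% of listed genes marked so; none of the 10 was among the 4.27% marked as down. That table gives TUBB3 an FDR of 0.00281 and a log2 fold change of 0.45 without a mark; every marked gene in the authors' deposited table has an absolute log2 fold change of at least 1.001.

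The regulators of this programme were thinly represented. Of 29 genes on the list of neuroendocrine regulators 11 were listed and 6 reached 1 FPKM in a line: 1 rose, none fell and 5 did not pass (median change 0.12). Among all tested genes 16.6% rose and 13.9% fell. Without both replicate 3 libraries 3 of the 6 rose, against 23.7% of all tested genes. SMARCD3, a subunit of the SWI/SNF remodelling complex, rose from 3.84 ± 0.762 to 6.14 ± 0.776 FPKM, a call lost without NCI-H1650 replicate 1 or 2 or NCI-H1650Re replicate 2. SOX4 (5.19 ± 0.200 and 4.65 ± 0.325 FPKM) and HES6 (2.14 ± 0.766 and 2.72 ± 0.378) did not pass, though HES6 rose without both replicate 3 libraries (limma adjusted p = 0.00981). NEUROD1 and INSM1, transcription factors of neuroendocrine cells, were not analysed here.

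Of 14 repressors of neuronal genes, 13 were tested: NOTCH2 rose, NOTCH3 and HES1 fell and 10 did not pass (median change 0.03). Among all tested genes 16.6% rose and 13.9% fell. Without both replicate 3 libraries 2 repressors rose and 3 fell, against 23.7% and 19.4% of all tested genes. REST was at 6.42, 6.87 and 6.14 FPKM in NCI-H1650 and 5.63, 4.78 and 5.54 in NCI-H1650Re, without overlap (log2 change -0.24, limma adjusted p = 0.0618). Under median-of-ratios scaling (limma adjusted p = 0.0427), without both replicate 3 libraries (0.0357) and on rebuilt counts with edgeR (0.0290) or DESeq2 (0.0191) REST passed. NOTCH3 fell from 29.2 ± 1.49 to 20.8 ± 2.74 FPKM and HES1, a Notch target that represses neuronal genes, from 10.6 ± 0.831 to 7.89 ± 0.170. The call of NOTCH3 was lost without NCI-H1650 replicate 2 (limma adjusted p = 0.0528), and that of NOTCH2 without replicate 2 of either line or NCI-H1650 replicate 3 (0.0522 to 0.0897). PTBP1, a splicing repressor of neuronal exons, was at 107 ± 7.54 and 109.5 ± 10.8 FPKM and did not pass.

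Of 17 neuropeptides and related hormones 4 were tested: ADM2 rose, ADM and CCK fell and NMU did not pass. Among all tested genes 16.6% rose and 13.9% fell. ADM2 reached the filter of 1 FPKM only in NCI-H1650Re and CCK only in NCI-H1650, so the count of calls on this list was helped by the filter. ADM2, a peptide of the calcitonin family, rose from 0.817 ± 0.352 to 9.62 ± 3.68 FPKM (log2 change 2.51, limma adjusted p = 0.000731). Its relative ADM fell from 29.2 ± 0.808 to 21.2 ± 1.62, and CCK from 1.46 ± 0.612 to 0.540 ± 0.210. The call of CCK was lost in 7 alternatives, among them leaving out both replicate 3 libraries (limma adjusted p = 0.0760). GRP, CALCA and SST, peptides of pulmonary neuroendocrine cells, were not analysed here.

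Across the 7 lists, 56 genes besides the markers were tested: 11 rose and 12 fell, while 33 did not pass. That made 41.1% changed, against 30.5% of all tested genes, with rises and falls about equal in number. Of the called genes KIF5A, KIF1A, TUBB2B, ADM2, RAB27B, DPYSL5 and CCK reached the filter of 1 FPKM only in their higher line. The lists were also chosen with earlier results of these data known, so this share is a description. Over the lists with the markers included, 66 genes were tested and the median change was 0.10, beside 0.03 over all tested genes. When neither replicate 3 library was used, there were 26 rises and 12 falls among these 66. The shares of all tested genes in that setting were 23.7% for rises and 19.4% for falls.

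**Figure D4:**
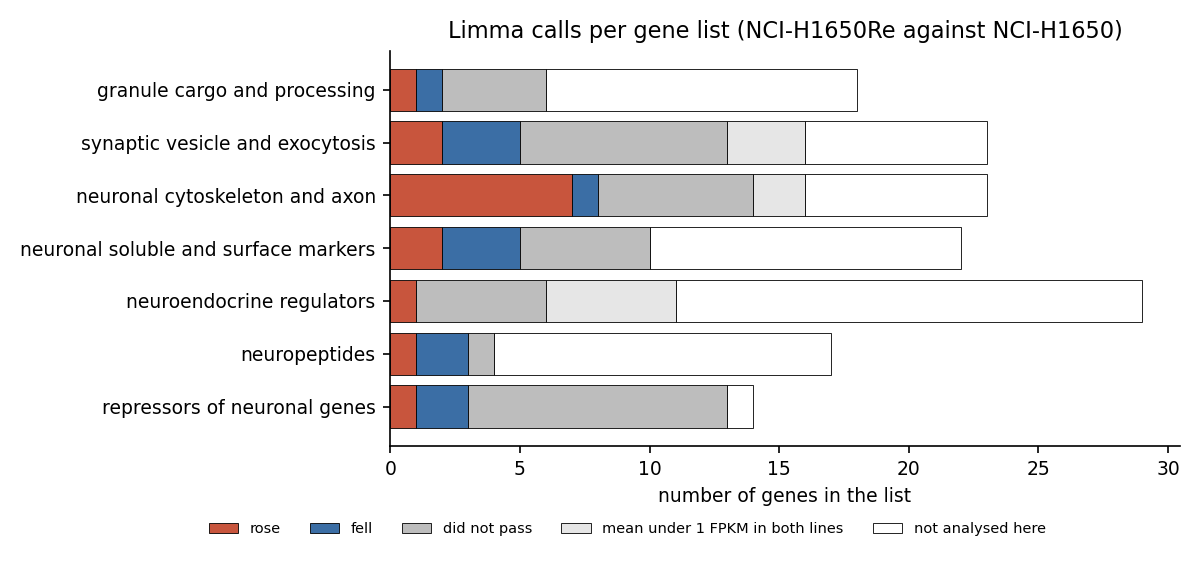
Number of genes in each of the 7 lists that rose, fell or did not pass in limma (NCI-H1650Re against NCI-H1650), that averaged under 1 FPKM in each line, or that were not analysed here. The neuronal cytoskeleton and axon list has 7 rises and 1 fall. Of these rises 4 are of genes that reached the filter of 1 FPKM only in NCI-H1650Re. The other lists have 1 or 2 rises each and 0 to 3 falls. Among these are CHGA, ADM2, RAB27B and CCK, which reached the filter only in their higher line. Among all tested genes 16.6% rose and 13.9% fell.

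The order of the markers by level changed little apart from the risers. In NCI-H1650 it ran TUBB3, CPE, SYT1, BEX1, DLL3, UCHL1, CHGB, SYP, CHGA and KIF5C from highest to lowest. FPKM is per length, so these levels can be set side by side. UCHL1 and CHGB, and CHGA and KIF5C, differed there by less than the larger of their SDs over libraries. In NCI-H1650Re BEX1 stood above SYT1, and CHGA above UCHL1, CHGB and SYP. There, neighbours within the run of CPE, BEX1 and SYT1 differed by less than the larger of their SDs, as did neighbours within the run of DLL3, CHGA, UCHL1, CHGB, SYP and KIF5C. KIF5C remained the lowest.

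**Figure D5:**
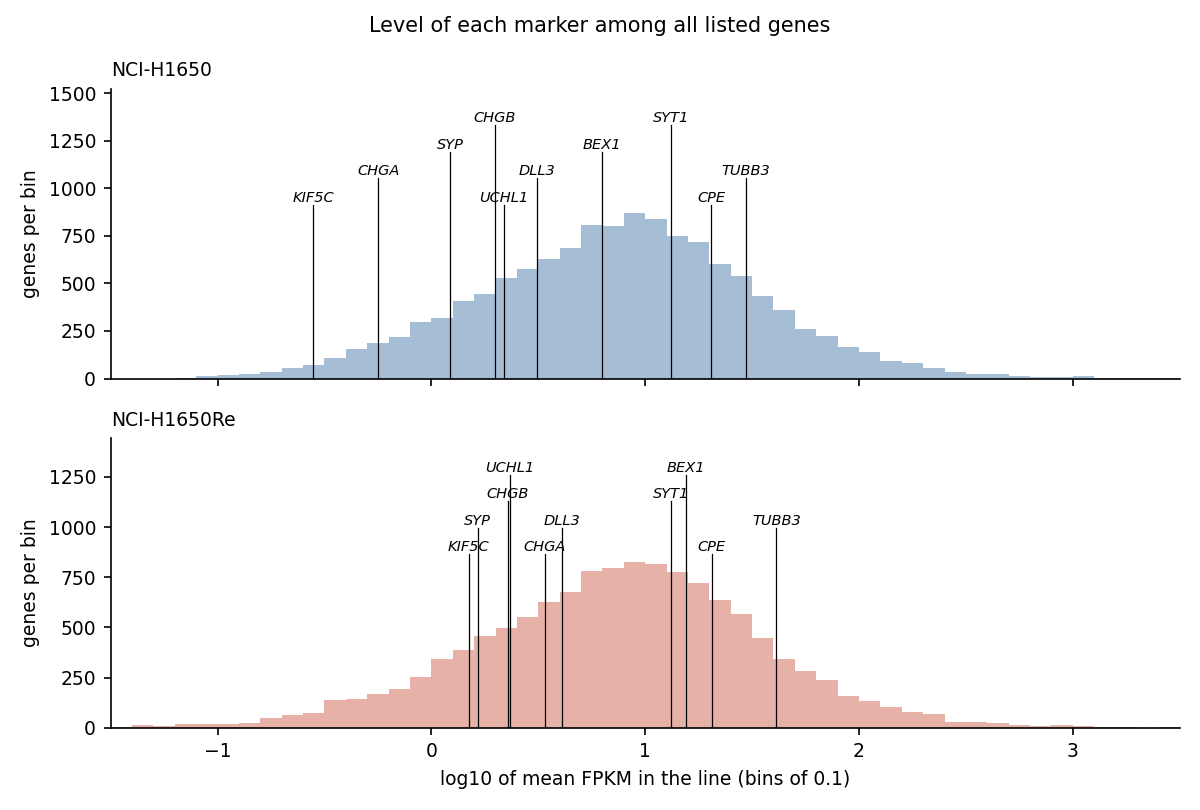
Distribution of mean FPKM (log10, bins of 0.1) over all 12659 listed genes in each line, with a vertical line at each marker. In NCI-H1650 KIF5C and CHGA lie in the lower tail, above 1.45% and 4.49% of genes; in NCI-H1650Re they lie above 14.6% and 28.6%, still left of the peak.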

How the data were processed

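RNA of 3 libraries per line was analysed as deposited. HISAT2, Bowtie2, RSEM and DESeq2 are named in the submitters' processing notes without versions, with the mouse build mm10, although the identifiers are human Ensembl ones. Their human build: not given in the sources used here. For 12659 genes the authors deposited an FPKM value per library. Counts were deposited by the authors for the 860 genes they marked. Per the file headers, the authors also deposited an FDR (adjusted p-value) and a log2 fold change for each gene.

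All genes averaging 1 FPKM or more in NCI-H1650 or NCI-H1650Re were fitted in limma 3.58.1 (R 4.3.3, variance trend, line as the only term) on log2(FPKM + 1). Depth came from the ratio of deposited counts to FPKM and the longest GENCODE 29 transcript, and was 17.0 to 22.3 M fragments. Counts of all genes were rebuilt from FPKM in the same way, rounded, and tested with edgeR 4.0.16 and DESeq2 1.42.0; 81.2% of rebuilt values of 785 marked genes were within 1% or 1 count of the deposited ones. Fragment numbers given as "about" are rebuilt, and intervals cover the spread between libraries only. The limma step was tested on simulated data. Where RefSeq gave 2 start sites, the stretch with most GENCODE starts was used, ties going to the gene's own start; that choice and the 1 Mb neighbourhoods were made after values were seen.

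The markers and gene lists were chosen with earlier results of these data known. Genes were named as follows: the 10 markers; per list, up to 4 others past the threshold with the largest change and up to 2 that did not pass with the highest level; fixed genes, of which ENO2, NCAM1, NEUROD1, INSM1 and REST are given (any other is not reported here); and the 3 genes with the profile most like CHGA, BEX1 and KIF5C. Relatives of the markers, neighbours of TUBB3, KIF5A, KIF1A, SYNGR1, and genes named only as not analysed were added after values were seen. Alternatives were other pseudocounts, filters, scalings, a replicate block, no variance trend, each library left out, both replicate 3 libraries left out, and the count models.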

Additional observations from a re-analysis of the deposited data

How the results depend on the processing

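With each library left out in turn, the number of genes changed between lines in limma was 1785 to 4478 (3587 with all), with 2 to 7 of the 10 markers and 15 to 30 of the listed genes (27 with all); the lowest counts came without NCI-H1650 replicate 2. Leaving out both replicate 3 libraries gave 7 markers. The filter at 5 FPKM kept 4 markers, of which 2 passed. At a bound of 5 FPKM in place of 1, 4 markers counted as present in NCI-H1650 and 4 in NCI-H1650Re. All 4 rises were called with other pseudocounts, no filter, other scalings, no variance trend, edgeR and DESeq2. With a replicate block 4 markers, 25 listed genes and 3522 genes overall passed; same-numbered libraries deviated together by r = 0.173, -0.0369 and 0.211 over 11764 genes for numbers 1, 2 and 3, so the numbers were not taken to pair the samples. No change past the threshold turned its direction among 1765 alternative values of 103 genes; 73 lost and 51 gained a call. Depth limits CHGA most among the 10 markers, at 5 counts in NCI-H1650 replicate 1.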

Other observations

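The genes whose mean-centred log2 levels over the 6 libraries were most like those of CHGA were UGT3A2, IL6 and RELB (root mean square differences of 0.16, 0.20 and 0.22). IL6, an inflammatory cytokine, was at 9.05 ± 5.08 and 24.8 ± 6.73 FPKM in the lines, and RELB, a subunit of NF-kB, at 2.73 ± 1.74 and 11.7 ± 3.56 (SD, n = 3). For BEX1 they were MAFF, FSCN1 and ITPRIP (0.17 each), of which FSCN1 encodes the actin-bundling protein fascin. For KIF5C they were CHD5, DOK1 and MAPK8IP2 (0.08 each); CHD5, a chromatin remodeller expressed in neurons, was at 2.59 ± 0.163 and 5.57 ± 1.16 FPKM, and MAPK8IP2, a scaffold of JNK signalling in brain, at 6.84 ± 0.925 and 13.9 ± 3.71. The rise of IL6 was lost in 3 alternatives and that of MAFF in 5; MAFF was also the only 1 of these 9 genes whose lines overlapped. These are descriptions over 6 libraries.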
